A study of Mus musculus with 9 samples.

Results

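N4bp2, Phex, Stxbp2, Abca2, Bdnf and Camk1d are 6 genes of the mouse tibialis anterior, the muscle at the front of the shin, chosen by the separation of the normalized counts of the libraries labelled Svil-KO from those of the wild-type (WT) libraries. They are 6 of the 56805 genes in the deposited table, and all 6 are among the 15279 genes that passed the filter on low values, which asks for a normalized count of at least 10 in at least 3 libraries. Each passed it in 7 or more of the 9 libraries, so none of them passed through a single genotype. The choice used the difference between Svil-KO and WT, and that difference is therefore given here as a description, with no test.

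By its title, the study asked about insulin action, the use of glucose and the function of muscle in mice with an altered Svil gene, which encodes supervillin, a membrane protein that binds actin and myosin. Total RNA came from the left muscle of male mice aged 13 months, 3 per genotype, each sequenced as 1 library. The genotypes are WT, Svil-KO (titled KO) and Svil-Mut (titled BG). The labels name neither the altered part of the gene nor the strain, and nothing in them ties mice of different genotypes to a litter. The libraries held 36234428 to 48762188 reads, all carried the batch label 1, and Svil itself lay at 8407 to 9373 normalized counts for WT, 6656 to 7402 for Svil-KO and 3939 to 4615 for Svil-Mut. The Svil-KO libraries thus kept more Svil reads than Svil-Mut, and as the altered part is not named, these counts do not check the labels. A normalized count is the number of reads on a gene divided by a size factor of its library. In whole muscle, fewer cells of a type and less RNA per cell cannot be told apart.

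The 6 genes act in separate processes. N4bp2 encodes a partner of the ubiquitin ligase Nedd4 and of Bcl3, with a polynucleotide kinase domain and a nuclease domain. Phex is a membrane endopeptidase of bone and tooth cells whose loss causes phosphate wasting. Stxbp2 (Munc18-2) binds syntaxins and is needed for granule release in leukocytes. Abca2 is an ABC transporter of the membranes of endosomes and lysosomes that handles lipids and is abundant in myelinating cells. Bdnf is a neurotrophin that signals through the receptor TrkB (Ntrk2), and contracting muscle makes it too. Camk1d is a calmodulin-dependent kinase that upstream kinases, the products of Camkk1 and Camkk2, switch on when calcium rises.

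N4bp2 (ENSMUSG00000037795.14) lies on the plus strand at chr5:65763521-65830108, Phex (ENSMUSG00000057457.11) on the minus strand at chrX:157162075-157415312 and Stxbp2 (ENSMUSG00000004626.14) on the plus strand at chr8:3630955-3643644. The other three share chromosome 2, with Camk1d (ENSMUSG00000039145.16) on the minus strand at chr2:5293457-5714515, Abca2 (ENSMUSG00000026944.18) on the plus strand at chr2:25428703-25448540 and Bdnf (ENSMUSG00000048482.14) on the plus strand at chr2:109674700-109727007. These positions are from GENCODE on GRCm38, the same assembly as mm10.

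The regions around the transcription starts are shown so that a reader can compare the promoters of these genes. Shared control through them was not tested. RefSeq on GRCm38.p6 gives 13 start regions for the 6 genes, each from 250 bases before to 50 bases after a start, of which Bdnf has 7 and Camk1d 2. The 4 regions printed are those of N4bp2 (chr5:65763271-65763570, plus strand), Phex (chrX:157415237-157415536, minus strand), Stxbp2 (chr8:3630859-3631158, plus strand) and the third Bdnf start (chr2:109692186-109692485, plus strand), each from 5′ to 3′ on the strand of the gene. Capitals mark GGGCGG or its reverse complement CCGCCC (the GC box) in N4bp2, and TGACG or its reverse complement CGTCA (the core of the cyclic AMP response element) in the other three.
N4bp2: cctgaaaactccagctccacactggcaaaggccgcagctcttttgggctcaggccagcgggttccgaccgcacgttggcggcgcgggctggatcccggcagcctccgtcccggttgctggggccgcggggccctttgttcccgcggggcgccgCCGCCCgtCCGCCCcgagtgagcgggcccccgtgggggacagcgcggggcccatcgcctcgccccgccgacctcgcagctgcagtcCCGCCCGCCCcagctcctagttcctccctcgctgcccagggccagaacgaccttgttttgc
Phex: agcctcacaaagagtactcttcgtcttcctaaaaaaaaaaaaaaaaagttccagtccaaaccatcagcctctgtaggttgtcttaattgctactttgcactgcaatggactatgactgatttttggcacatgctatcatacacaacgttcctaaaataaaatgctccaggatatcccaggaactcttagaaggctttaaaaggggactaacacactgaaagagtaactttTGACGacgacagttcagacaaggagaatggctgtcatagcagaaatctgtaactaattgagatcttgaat
Stxbp2: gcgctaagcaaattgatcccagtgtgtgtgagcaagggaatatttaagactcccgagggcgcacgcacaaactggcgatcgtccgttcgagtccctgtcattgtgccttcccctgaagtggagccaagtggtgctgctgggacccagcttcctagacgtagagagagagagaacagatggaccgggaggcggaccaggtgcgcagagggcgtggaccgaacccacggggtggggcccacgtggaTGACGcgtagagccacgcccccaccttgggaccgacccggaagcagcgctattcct
Bdnf: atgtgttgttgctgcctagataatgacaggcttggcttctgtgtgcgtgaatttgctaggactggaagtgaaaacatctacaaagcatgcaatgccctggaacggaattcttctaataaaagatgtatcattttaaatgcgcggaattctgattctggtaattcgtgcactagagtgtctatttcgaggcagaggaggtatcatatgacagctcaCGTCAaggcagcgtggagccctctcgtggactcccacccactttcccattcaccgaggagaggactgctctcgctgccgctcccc
The N4bp2 region is 73.7% G and C with 34 CpG pairs and holds 4 GC boxes, the last pair of which overlap. That of Phex is 38.7% G and C with 4 CpG pairs and has no GC box. Nearer to N4bp2 were the first Camk1d region (71.3%, 29 CpG pairs), Abca2 (65.0%, 26) and Stxbp2 (61.3%, 22). The second Camk1d region was at 48.7% and the 7 Bdnf regions ran from 38.7% to 58.0%. A GC box on either strand occurred in 6 of the 13 regions, against 35.7% of the 32851 start regions in the RefSeq table. A TGACG match occurred in 3 of the 13, those of Phex, Stxbp2 and the third Bdnf start, against 20.8% of all regions. Both motifs were picked after the sequences had been seen, and the Bdnf region was printed because it holds a TGACG match. They describe letters in the sequence and say nothing of a bound factor, and the gene counts do not show which Bdnf start was used.

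N4bp2 was higher in Svil-KO, and Svil-Mut stood between the other genotypes. Its normalized counts were 25.2, 21.2 and 36.7 in WT, 71.3, 66.8 and 82.3 in Svil-Mut, and 138, 152 and 139.6 in Svil-KO. The 3 genotypes did not overlap, and the lowest Svil-KO library was 3.75 times the highest WT library. The means were 27.7 ± 8.0 in WT, 73.5 ± 8.0 in Svil-Mut and 143 ± 7.7 in Svil-KO (SD, n = 3), which makes Svil-KO 5.16-fold and Svil-Mut 2.65-fold higher than WT. On the log2(normalized count + 1) scale used for all differences below, Svil-KO minus WT was 2.36 ± 0.30 (SE from the limma fit over all genes). The counts behind these values are small, 80 reads in the 3 WT libraries together, 227 in Svil-Mut and 449 in Svil-KO. The antisense gene N4bp2os shares 337 bases of exon with N4bp2, and the kit does not mark strand. N4bp2os itself was counted at 2.04 to 10.9 in WT and 0.797 to 4.40 in Svil-KO, lower on average where N4bp2 was higher.

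Phex showed the same order at lower counts. It was at 10.9, 11.1 and 2.04 in WT, 21.4, 16.2 and 15.1 in Svil-Mut, and 77.0, 33.6 and 46.3 in Svil-KO. All Svil-KO libraries were above all others, and the Svil-Mut libraries were above WT by a smaller margin. The means were 8.04 ± 5.2, 17.6 ± 3.3 and 52.3 ± 22 in that order (SD, n = 3), so Svil-KO was 6.51-fold higher than WT. Replicate 1 was the highest Svil-KO library and replicate 3 the lowest. The WT mean rests on 23 reads, and the log2 difference was 2.73 ± 0.64 (SE).

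Stxbp2 was also higher in Svil-KO, with Svil-Mut closer to WT. WT libraries had 44.8, 44.5 and 47.9, Svil-Mut libraries 69.2, 64.9 and 48.3, and Svil-KO libraries 127, 115 and 94.9. The WT libraries were very alike, and Svil-Mut replicate 4 lay just above the highest of them. Svil-KO was 2.45-fold higher than WT, at 112 ± 16 against 45.8 ± 1.9 (SD, n = 3), with a log2 difference of 1.27 ± 0.29 (SE). No other annotated gene overlaps Stxbp2.

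Abca2 had the highest counts and the smallest separation of the 6. It was at 785, 615 and 693 in WT, 997, 877 and 808 in Svil-Mut, and 931, 1174 and 1384 in Svil-KO. Svil-KO and WT did not overlap, but the nearest libraries differed by only 1.19 times, and Svil-Mut replicate 1 was above Svil-KO replicate 1. The means were 698 ± 85, 894 ± 95 and 1163 ± 227 in that order (SD, n = 3), a 1.67-fold difference between Svil-KO and WT (log2 difference 0.72 ± 0.16 SE).

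Bdnf was lower in Svil-KO, while Svil-Mut overlapped WT. WT had 77.7, 43.5 and 70.3, Svil-Mut 71.3, 41.0 and 39.7, and Svil-KO 4.40, 4.08 and 16.7. The highest Svil-KO library stayed below all 6 others. The WT mean of 63.8 ± 18 was 7.59-fold the Svil-KO mean of 8.41 ± 7.2 (SD, n = 3), and Svil-Mut was at 50.7 ± 18, 79.4% of WT. Bdnf had 183 reads in the 3 WT libraries, 155 in Svil-Mut and 29 in Svil-KO (log2 difference of Svil-KO minus WT -3.00 ± 0.57 SE). The antisense gene Gm45346 shares 896 bases of exon with Bdnf and was listed at 0 in all libraries but WT replicate 3, where it was at 2.02.

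Camk1d followed the pattern of Bdnf. Its values were 28.4, 78.9 and 46.9 in WT, 32.6, 33.4 and 60.6 in Svil-Mut, and 6.60, 5.10 and 12.8 in Svil-KO. Again Svil-Mut overlapped WT and Svil-KO lay below both. WT was at 51.4 ± 26, Svil-Mut at 42.2 ± 16 and Svil-KO at 8.15 ± 4.1 (SD, n = 3), a Svil-KO level of 15.9% of WT (log2 difference -2.49 ± 0.54 SE). The WT libraries themselves spread widely, with replicate 1 low and replicate 3 high, and only 27 reads fell on the gene in Svil-KO.

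**Figure D1:**
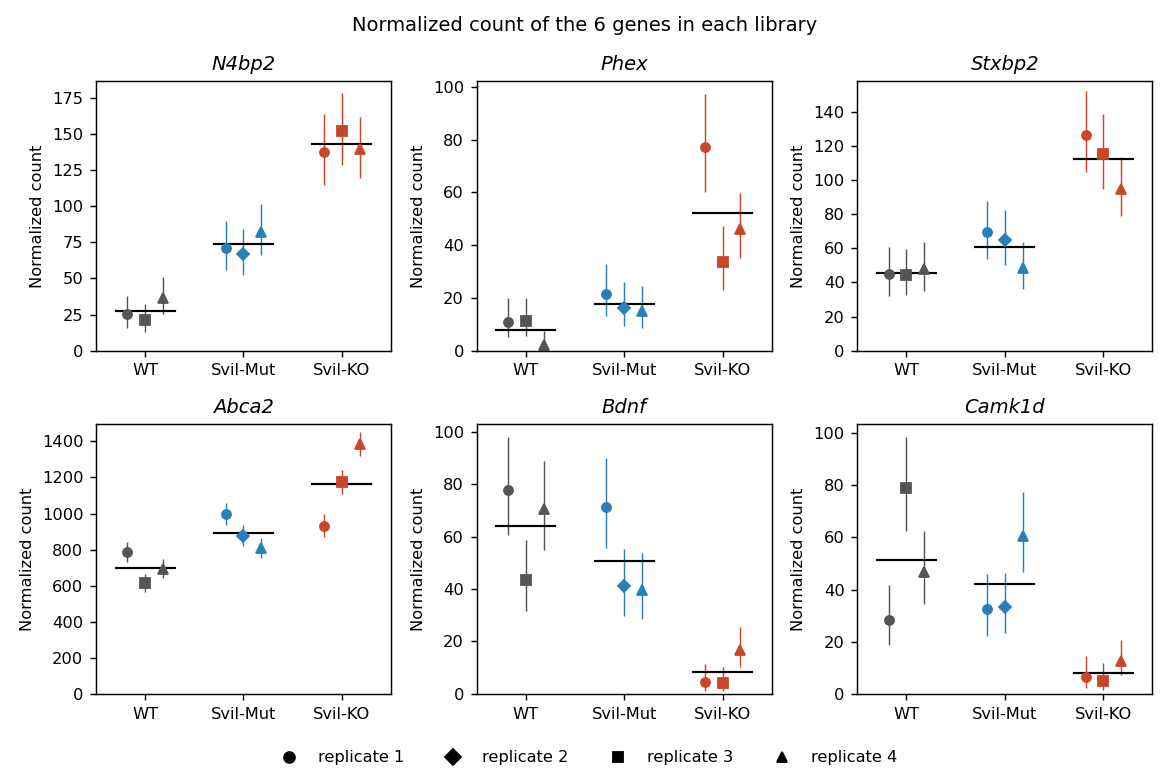
Normalized count of each gene (y axis, linear from 0) in the libraries of the 3 genotypes (x axis). Symbols mark the replicate, black bars the mean, and vertical lines the exact 95% Poisson interval of the reads, which covers counting error only. N4bp2, Phex and Stxbp2 fall into 3 steps, while Bdnf and Camk1d are low only in Svil-KO. For Stxbp2 the lowest Svil-Mut library (48.3) barely clears the highest WT library (47.9), well within counting error.

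Divided by the length of their exons, the 6 genes changed rank between genotypes. In WT, Abca2 was at 83.6 ± 10 normalized counts per kilobase, followed by Stxbp2 at 11.0 ± 0.45, Bdnf at 10.3 ± 2.9, Camk1d at 6.92 ± 3.4, N4bp2 at 1.85 ± 0.54 and Phex at 1.28 ± 0.83 (SD, n = 3). The ranges of Stxbp2 with Bdnf, Bdnf with Camk1d and N4bp2 with Phex differed by no more than their spread. In Svil-KO the order was Abca2 (139 ± 27), Stxbp2 (27.0 ± 3.9), N4bp2 (9.57 ± 0.52), Phex (8.31 ± 3.5), Bdnf (1.35 ± 1.2) and Camk1d (1.10 ± 0.55), in the same unit. N4bp2 and Phex could not be separated there, nor could Bdnf and Camk1d. Svil-Mut had the WT order, with Abca2 at 107 ± 11, Stxbp2 at 14.6 ± 2.7, Bdnf at 8.15 ± 2.9, Camk1d at 5.68 ± 2.1, N4bp2 at 4.92 ± 0.53 and Phex at 2.79 ± 0.53. There Bdnf overlapped Camk1d and Camk1d overlapped N4bp2. Exon lengths were summed over all annotated transcripts, from 4.159 kb for Stxbp2 to 14.946 kb for N4bp2, and the transcripts in use may be shorter. By mean count over the 9 libraries, Abca2 was above 70.3% of tested genes and the other 5 above 16.0% to 29.4%.

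These genes were not the only ones with separate libraries. Between Svil-KO and WT, 1628 of the 15279 tested genes (10.7%) had no overlap, 5.2% of the tested genes higher and 5.45% lower in Svil-KO (48.8% of the 1628 were higher), and no gene passed limma at a Benjamini-Hochberg adjusted p under 0.05 (0%). EdgeR's quasi-likelihood test also called 0 genes, while 628 genes had an unadjusted limma p under 0.05. DESeq2, which made a larger share of false calls than limma or edgeR on simulated counts, called 4, N4bp2 and Bdnf among them. Measured as the log2 gap between the nearest libraries of the 2 genotypes, N4bp2 had 1.88, and 16 genes including itself had a gap as large. The gap was 1.51 for Phex, 1.33 for Bdnf, 1.10 for Camk1d and 0.97 for Stxbp2, and 23 to 40 genes reached each of these. Abca2 had a gap of 0.25, which 287 genes reached. The selection had no numerical threshold.

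**Figure D2:**
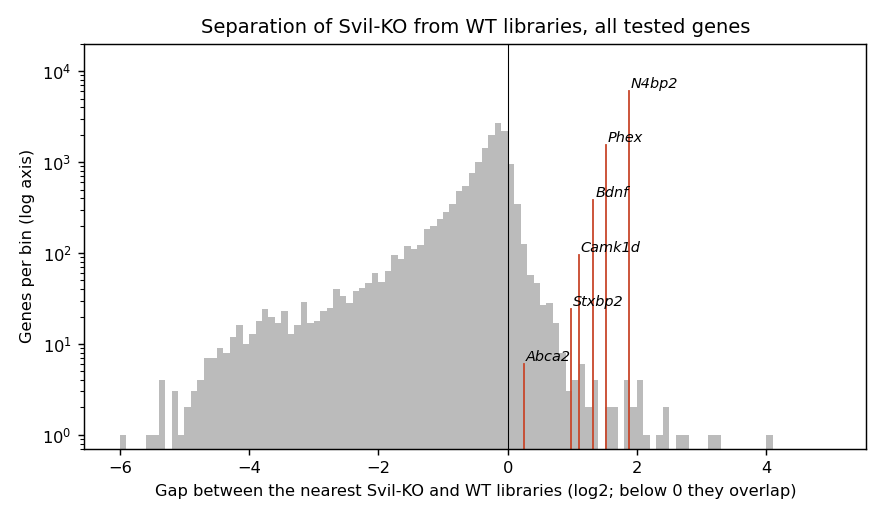
Distribution over the 15279 tested genes of the gap between the nearest Svil-KO and WT libraries (x axis, log2, in bins of 0.1, with values below 0 where libraries overlap), with genes per bin on a log y axis. Red lines mark the 6 genes at 0.25 to 1.88, and the grey bars to their right show that other genes separate as widely or more.

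Svil-Mut was not used in choosing the genes, so its place is the measurement that the data add. It was tested against the midpoint of WT and Svil-KO, a contrast that in this balanced design is uncorrelated with Svil-KO minus WT. Limma called 24 of the 15279 genes (0.157%, with 0.124% above and 0.0327% below the midpoint) in this contrast, and none of the 6. N4bp2 was 0.23 ± 0.26 (SE) above the midpoint on the log2 scale (adjusted p = 0.803), and Abca2 was -0.0035 ± 0.14 from it (adjusted p = 0.996). Phex was at -0.09 ± 0.56 (adjusted p = 0.974) and Stxbp2 at -0.25 ± 0.25 (adjusted p = 0.768). Bdnf, at 1.16 ± 0.49 (adjusted p = 0.385), and Camk1d, at 1.02 ± 0.47 (adjusted p = 0.428), lay on the WT side of their midpoints. As a share of the log2 distance from WT to Svil-KO, Svil-Mut had moved 59.6% for N4bp2, 49.5% for Abca2, 46.7% for Phex, 30.5% for Stxbp2, 11.2% for Bdnf and 8.88% for Camk1d. The genes were chosen for that distance, which may therefore be overstated, and the shares are given without an error. For all 6 genes the Svil-Mut mean lay between the other genotypes, as it did for 56% of the 1628 genes whose Svil-KO and WT libraries do not overlap.

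**Figure D3:**
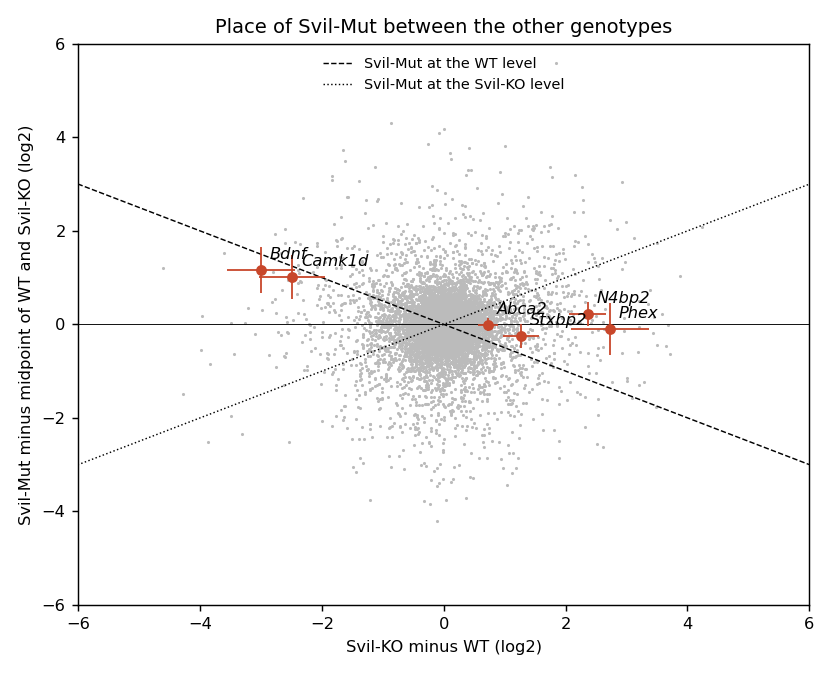
Svil-KO minus WT (x axis, log2) against Svil-Mut minus the midpoint of WT and Svil-KO (y axis, log2) for all tested genes (grey) and the 6 genes (red, bars are SE). Points on the dashed line have Svil-Mut at the WT level and points on the dotted line at the Svil-KO level. Bdnf and Camk1d sit near the dashed line at 1.16 and 1.02, while N4bp2, Abca2, Phex and Stxbp2 sit nearer 0, from -0.25 to 0.23.

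The comparisons of Svil-Mut with WT and of Svil-KO with Svil-Mut share libraries with the contrast that chose the genes, so their values are given side by side without a p. Svil-Mut minus WT was 1.41 ± 0.30 (SE) for N4bp2, 1.27 ± 0.64 for Phex, 0.39 ± 0.29 for Stxbp2, 0.36 ± 0.16 for Abca2, -0.34 ± 0.57 for Bdnf and -0.22 ± 0.54 for Camk1d. Svil-KO minus Svil-Mut was 0.96, 1.45, 0.88, 0.37, -2.66 and -2.27 in the same order, with the same SE. Single libraries moved some of these values by over 1.5 times. Svil-Mut minus WT for Phex was 0.61 without WT replicate 4, and Svil-KO minus Svil-Mut for Abca2 was 0.23 without Svil-KO replicate 4. With single libraries left out, Svil-Mut minus WT ran from -0.61 to -0.18 for Bdnf and from -0.58 to 0.14 for Camk1d, and the removal of any WT or Svil-Mut library moved these by over 1.5 times, apart from WT replicate 4. Limma called none of the 6 in either, against 6 genes (0.0393%, with 0.0262% higher and 0.0131% lower) in the former and 7 (0.0458%, with 0.0131% higher and 0.0327% lower) in the latter. DESeq2 called N4bp2 among 172 genes in the former, and Bdnf and Camk1d among 212 in the latter. Libraries of Svil-Mut and WT did not overlap for N4bp2, Phex, Stxbp2 and Abca2, 4 of the 6, against 13.9% of all tested genes (7.13% higher and 6.81% lower). Those of Svil-KO and Svil-Mut did not overlap for 5 of the 6, all but Abca2, against 15.2% (7.55% higher and 7.66% lower). Among the genes already separate between Svil-KO and WT these shares were 26.4% and 27.3%. All these shares cover genes of any gap, while all of the 6 but Abca2 have gaps that only 16 to 40 genes reach. The counts among the 6 reuse the libraries that chose them and are a description. N4bp2, Phex and Stxbp2 were 3 of 18 genes (0.118% of those tested and 1.11% of those separate between Svil-KO and WT) whose genotypes formed 3 separate steps with Svil-Mut in the middle. A wide gap between Svil-KO and WT, for which these genes were chosen, leaves more room for such a step. For Stxbp2 the log2 gap between Svil-Mut and WT was only 0.011, against 0.85 for N4bp2.

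No partner or paralog of N4bp2 passed the test. Of the 13 listed genes of the N4bp family, the Nedd4 ligases and Bcl3 with its NF-kB partners, all 13 were tested and none passed in any comparison. Their median log2 difference between Svil-KO and WT was 0.06, against 0.0031 over all tested genes. Nedd4, the ligase that gave N4bp2 its name, was at 14901 ± 1130 for WT, 15468 ± 279 for Svil-KO and 16086 ± 509 for Svil-Mut (SD, n = 3). The paralog N4bp2l1 had a log2 difference of 0.50 ± 0.33 (SE) and N4bp2l2 one of -0.29 ± 0.18. Bcl3, a nuclear partner of NF-kB, was at 24.0 ± 2.5 for WT, 31.7 ± 17 for Svil-KO and 70.0 ± 31 for Svil-Mut (SD, n = 3), and did not pass in Svil-Mut against WT (limma adjusted p = 0.365).

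No gene of the neurotrophin system around Bdnf passed the test. Of 24 listed ligands, receptors and processing proteases, 20 were tested, and Plg and Mmp7 had no read in any library. The median log2 difference between Svil-KO and WT was -0.04. Ntf5, the ligand that shares TrkB with Bdnf, was at 212 ± 40, 207 ± 16 and 223 ± 48 in WT, Svil-KO and Svil-Mut (SD, n = 3). The TrkB gene Ntrk2 was at 124 ± 24, 109 ± 53 and 87.0 ± 53 in that order, and the low-affinity receptor gene Ngfr at 0 to 10.9, 3.99 to 26.4 and 0 to 17.0. Sort1, which sorts proneurotrophins, and Furin, which cleaves them, had log2 differences between Svil-KO and WT of -0.03 ± 0.15 and 0.17 ± 0.10 (SE). Of 19 listed regulators of Bdnf transcription, 18 were tested and none passed (median 0.02 in Svil-KO minus WT).

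Of the tested calmodulin kinase genes, the upstream kinase Camkk1 had the widest difference in Svil-KO minus WT, wider than that of Camk1d. Of the 18 listed genes 16 were tested, none passed, and the median log2 difference between Svil-KO and WT was -0.02. Camk1, a close relative of Camk1d, was at 2152 ± 237 for WT, 1975 ± 93 for Svil-KO and 2187 ± 89 for Svil-Mut, and Camk2a at 5810 ± 826, 5695 ± 621 and 6852 ± 406 in the same order (SD, n = 3). Camkk1, named after its values were seen, was at 1.09, 0 and 0 in WT, 42.9, 7.13 and 38.3 in Svil-KO, and 10.2, 23.9 and 45.4 in Svil-Mut. It had 1 read in all WT libraries together and 94 in Svil-KO, and its log2 difference of 4.24 ± 0.88 (SE) was the largest increase of any tested gene in Svil-KO minus WT. It did not pass there (limma adjusted p = 0.997) or in Svil-Mut minus WT (4.20, limma adjusted p = 0.205). The other upstream kinase gene, Camkk2, was at 90.4 ± 26, 80.7 ± 42 and 71.6 ± 13 in WT, Svil-KO and Svil-Mut (SD, n = 3).

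No related transporter or membrane fusion gene passed the test. Of the 15 other genes listed from ABC subfamily A, 9 were tested, none passed and 2 of the 9 had a positive log2 difference between Svil-KO and WT (median -0.10). The cholesterol exporter gene Abca1, its close relative Abca7 and the surfactant lipid transporter gene Abca3 had differences of -0.33 ± 0.46, -0.02 ± 0.14 and -0.10 ± 0.21 (SE). Of the 30 Munc18, SNARE and exocytosis genes listed with Stxbp2, 26 were tested and none passed (median 0.04). Its paralog Stxbp3 had a difference of 0.03 ± 0.11 (SE). Stx11, a syntaxin partner of Stxbp2 in leukocytes, was at 4.05 to 19.4 for WT, 8.77 to 55.0 for Svil-KO and 2.86 to 37.8 for Svil-Mut, and Snap23, a SNARE of many tissues, at 2035 ± 72, 1888 ± 148 and 2025 ± 264 in the same order (SD, n = 3).

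Of the 19 phosphate and mineral genes listed with Phex, 10 were tested and none passed (median 0.08 in Svil-KO minus WT), and Mepe, Slc34a1 and Slc34a2 had no read. The phosphate carrier gene Slc20a2 was at 3917 ± 412 for WT, 4378 ± 563 for Svil-KO and 3827 ± 113 for Svil-Mut, and Enpp1, which makes pyrophosphate, at 123 ± 25, 108 ± 32 and 127 ± 34 in the same order (SD, n = 3). Of the 6 other peptidases of the neprilysin family only Mme and Ece1 were tested, with differences between Svil-KO and WT of 0.01 ± 0.32 and -0.02 ± 0.15 (SE). Across the 8 related lists, 16 of 114 tested genes had no overlap between Svil-KO and WT, next to 10.7% of all tested genes.

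**Figure D4:**
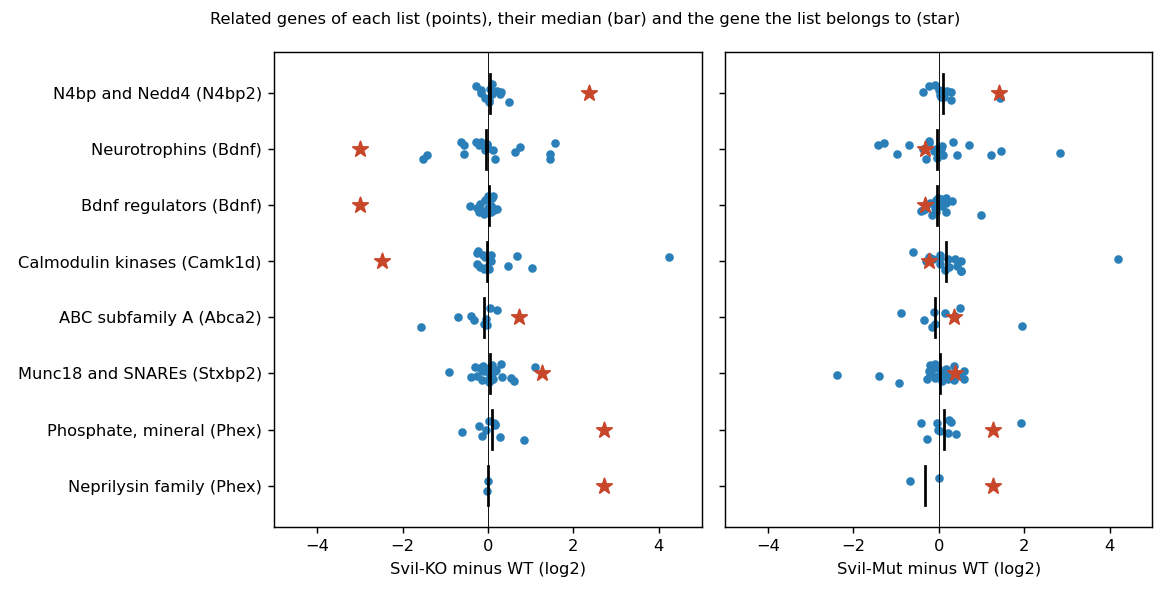
Log2 difference (x axes) of Svil-KO (left) and Svil-Mut (right) from the same WT libraries for the tested genes of the 8 related lists (blue points), with the list median (black bar) and the gene each list belongs to (red star). The stars lie outside their lists at left, where they were chosen, and the point near 4.24 is Camkk1.

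Markers of the cell types that could supply these transcripts were summed per library. None of the 17 marker lists had summed levels that separated Svil-KO from WT, and none of their 113 tested genes passed in any comparison. A sum follows its most abundant genes. Adipocyte markers (7 of 7 tested) summed to 9501 to 11269.5 for WT and 8354 to 9562 for Svil-KO. Their median log2 difference between Svil-KO and WT was -1.34, with 0 of the 7 above 0. For slow and oxidative fibre markers it was 0.63, with 6 of 9 above 0. Several of these spread widely within Svil-KO. Myh7 was at 53.4 to 2476 there (79.9 to 333 in WT) and Tnnc1 at 181 to 1429 (103 to 281 in WT). Macrophage markers (9 of 9 tested) summed to 688 to 971 for WT, 742 to 1254 for Svil-KO and 648 to 1558 for Svil-Mut. Neutrophil markers (4 of 8 tested, Ly6g without a read) summed to 18.3 to 73.3, 23.1 to 37.5 and 26.5 to 439, and mast cell markers (5 of 7 tested) to 93.7 to 307, 169 to 269.6 and 105 to 201. Schwann cell markers (12 of 12 tested) summed to 4436 to 5689 for WT, 4268 to 6649 for Svil-KO and 3878 to 4999 for Svil-Mut. Bone markers (1 of 8 tested, Mepe without a read) came to only 64.8 to 105, 51.7 to 72.4 and 73.5 to 106, and overlapped between Svil-KO and WT, where Phex did not. Most of these sums was Phospho1, the gene tested, at 64.8 to 67.2 for WT, 50.2 to 70.3 for Svil-KO and 67.8 to 78.4 for Svil-Mut. In Svil-Mut against WT, summed fast fibre markers were higher without overlap, and slow and oxidative fibre markers lower, at 42461 to 80162 against 111390 to 163582. In Svil-KO against Svil-Mut, 3 sums did not overlap. Slow and oxidative fibre markers were higher in Svil-KO (102573 to 162221), bone markers were lower, and red blood cell markers were lower, at 2635 to 6208 against 6559 to 49363. The part of these markers in the Svil-KO and Svil-Mut values of the 6 genes was not tested.

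The neighbours of the 6 genes on their chromosomes did not pass the test in any pairwise comparison. Within 500 kb of the gene midpoints lay 77 tested genes, of which 11 (14.3%) had no overlap between Svil-KO and WT, next to 10.7% of all tested genes. The nearest tested genes beside N4bp2 were Pds5a, a cohesin regulator, with a log2 difference between Svil-KO and WT of 0.42 ± 0.16 (SE), and Chrna9, an acetylcholine receptor gene at 7.76 ± 13 normalized counts in WT (SD, n = 3), with 1.96 ± 1.2 (SE). Beside Bdnf they were Kif18a (-0.14 ± 0.38) and Lin7c (0.07 ± 0.10), and beside Camk1d Ccdc3 (0.54 ± 0.42) and Cdc123 (0.0050 ± 0.084). Stxbp2 lies between Pet100 (-0.11 ± 0.12) and the adipokine gene Retn (-1.87 ± 1.4), Abca2 between Npdc1 (0.13 ± 0.14) and Paxx (-0.16 ± 0.19), and Phex between Gm15163 (-0.10 ± 0.14) and Sms (0.04 ± 0.15).

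The genes with the most similar profile were found by Pearson correlation of log2 values over the 9 libraries. Candidates were 11244 tested genes with a mean of at least 50 in some genotype. Predicted genes, with symbols of Gm plus digits or ending in Rik, were left out of them. The ranking is a description, since the best of so many genes will correlate highly, and the libraries share their genotypes. Closest to N4bp2 were Tdrkh (r = 0.90), Nek7 (0.90) and Lgalsl (0.90), closest to Phex Zfp148 (0.95), Snx11 (0.93) and Adcy3 (0.93), closest to Stxbp2 Actr2 (0.96), Pigu (0.93) and Cab39 (0.93), and closest to Abca2 Mlf1 (0.93), Dus3l (0.91) and Api5 (0.90). A high r does not require the same steps. Tdrkh was at 306 ± 47 in WT, 476 ± 69 in Svil-Mut and 489 ± 31 in Svil-KO (SD, n = 3). Its Svil-Mut level was thus close to Svil-KO, unlike that of N4bp2. S1pr2, a sphingosine 1-phosphate receptor gene, came first for both Bdnf (0.94) and Camk1d (0.95). Its level was 70.9 ± 9.8 in WT, 60.1 ± 5.5 in Svil-Mut and 32.5 ± 8.7 in Svil-KO (SD, n = 3), a smaller step than that of either gene. Next came Dnajc18 (0.90) and Osbpl7 (0.89) for Bdnf, and Rps16 (0.92) and the pseudogene Psmb6-ps2 (0.95), whose reads may belong to its parent gene, for Camk1d. By Spearman's rank correlation, 4 of these 18 entries were still among the top 3.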

How the data were processed

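RNA was read from oligo(dT)-primed, amplified full-length cDNA cut by tagmentation, per the labels' protocols, a method that does not keep strand. The submitters' processing notes say that the authors used HISAT2, featureCounts and DESeq2 on mm10, and the sources used here give no version, setting or annotation. Deposited values are a signal per gene: reads divided by a size factor of the library. In each library 100% of the values above 0 came out, to within 0.001, as whole reads times the worth of a read. The factors do not correct for length and assume that most genes do not differ.

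Values were analysed as log2(normalized count + 1) with limma 3.58.1 (R 4.3.3), all 9 libraries in 1 fit with genotype as the factor and a variance trend, for genes at 10 or more in at least 3 libraries. P-values were adjusted by Benjamini-Hochberg over all tested genes. The p-values set a difference against the spread between mice within genotypes. That spread was pooled over the 3 genotypes and moderated by its trend over all tested genes. The 6 genes and all gene lists were chosen with earlier results of these data known. Genes named besides the 6 are Svil, close paralogs and partners fixed by name, the nearest tested neighbours and the 3 most similar profiles per gene, and Camkk1 and the genes in the closing observations were added after their values had been seen. Positions were matched by symbol to GENCODE for 95.9% of tested genes, an annotation that need not be that of the authors. Alternatives were other pseudocounts, filters and scalings, no variance trend, edgeR 4.0.16 and DESeq2 1.42.0 on the recovered reads, 2 genotypes per fit, a replicate block and leaving out each library. Values of some listed genes are not reported here. The tests were tried on simulated counts. Python 3.11.15 and matplotlib 3.10.9 were used.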

Additional observations from a re-analysis of the deposited data

How the results depend on the processing

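The signs of the 6 genes in Svil-KO minus WT and in Svil-KO minus Svil-Mut were kept under each of the 20 alternatives in which the gene was tested. With a pseudocount of 10, Svil-KO minus WT came to 2.04 for N4bp2, -2.04 for Bdnf, -1.70 for Camk1d and 1.78 for Phex, which that setting shrinks by construction. Leaving out 1 library at a time, it ran from 2.20 to 2.58 for N4bp2, 2.07 to 3.06 for Phex, 1.18 to 1.38 for Stxbp2, 0.59 to 0.88 for Abca2, -3.59 to -2.69 for Bdnf and -2.85 to -2.13 for Camk1d. Svil-Mut minus WT turned from -0.22 to 0.14 for Camk1d without WT replicate 3 (range -0.58 to 0.14). The distance of Svil-Mut from the midpoint changed sign for Abca2 (-0.085 to 0.067) and Phex (-0.42 to 0.079) with single libraries left out, and passed for none of the 6 under any alternative.

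Counts of called genes moved more. Svil-KO against WT gave 0 genes under all alternatives except DESeq2, which gave 4, N4bp2 and Bdnf among them. The 6 genes were chosen by this comparison, so these calls are a description. DESeq2 made a larger share of false calls than limma or edgeR on simulated counts, whose spread was taken from edgeR's estimates. That simulation cannot show how many of the DESeq2 calls in these data are false. Svil-Mut against WT (6 genes) gave 19 with a pseudocount of 10, 16 with a mean of at least 50, 14 with only the 2 genotypes compared, 172 by DESeq2 and 4 to 18 without 1 library. Svil-KO against Svil-Mut (7 genes) gave 212 by DESeq2 and 4 to 13 without 1 library. The midpoint contrast (24 genes) gave 38 with a mean of at least 50, 9 without a variance trend, 379 by DESeq2 and 7 to 39 without 1 library. Single libraries that moved a count by over 1.5 times were Svil-KO replicates 1 and 3 and Svil-Mut replicates 1 and 4 for Svil-Mut against WT (12 to 18), Svil-KO replicates 1 (13) and 4 (4) for Svil-KO against Svil-Mut, and for the midpoint WT replicates 3 and 4, Svil-KO replicates 3 and 4 and Svil-Mut replicate 2 (7 to 11) and Svil-Mut replicate 1 (39). The cause was not tested.

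Same-numbered mice did not deviate together over all genes (r from -0.0556 to 0.0444 over 7 pairs), so no pairing by number was visible. A link between mice that acts on few genes could be missed by this correlation. With a replicate block the counts were 0, 7, 6 and 15 in the same order of comparisons. Neighbours without overlap numbered 19 of 122 (15.6%) within 1000 kb, next to 10.7% of all tested genes. At 21 to 78 reads per WT library for N4bp2, Bdnf, Camk1d and Stxbp2, and 2 to 11 for Phex, counting error adds to the spread between mice.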

Other observations

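Besides N4bp2, Phex and Stxbp2, 15 genes formed 3 separate steps with Svil-Mut in the middle, which makes 10 of the 18 higher and 8 lower in Svil-KO. Gsto2, a glutathione transferase gene, was at 0.365 ± 0.63 in WT, 9.08 ± 0.52 in Svil-Mut and 20.6 ± 15 in Svil-KO (SD, n = 3). Actr2, a subunit of the actin-nucleating Arp2/3 complex and the gene with the profile most like that of Stxbp2, was at 1248 ± 29, 1341 ± 54 and 1505 ± 52 in that order, and Cast, the inhibitor of calpain proteases, at 4165 ± 98, 4503 ± 251 and 4958 ± 105. Among those lower in Svil-KO, the aldehyde dehydrogenase gene Aldh3b1 was at 67.8 ± 5.8, 50.7 ± 8.7 and 28.8 ± 11 (SD, n = 3). These genes were picked for this order, so the values are a description.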
